A study of Mus musculus with 1376 samples.

Results

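The Hox genes encode the homeodomain transcription factors that give cells a position along the head-to-tail axis of the embryo. Members were all genes of the count table whose mouse symbol is Hox followed by a cluster letter from a to d and a paralogue number, which gave 39 protein-coding genes among 46517 annotated genes. The HoxA cluster has 11 of them, HoxB 10, and HoxC and HoxD 9 each. They were followed in 1376 single lung cells of 3 mice of the strain ACTA2GFP:CSPG4dsRED, whose name gives a green reporter for smooth muscle actin and a red one for the proteoglycan NG2 of mural cells. Cells had been sorted singly into plate wells and read by Smart-Seq2, a protocol for whole transcripts that does not tag single molecules. Male mouse 1 contributed 47.5% of the cells (2 plates), male mouse 2 contributed 25.6% (1 plate) and female mouse 1 contributed 26.96% (1 plate). All 3 mice carried the reporters and are labelled 8 to 30 weeks of age, the labels name no treatment, and no source used here gives the sort gate. The comparison made is between cell classes of one organ.

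Mammals carry their Hox genes in 4 clusters on different chromosomes, and genes of the same paralogue number in different clusters descend from a common ancestor gene. Within a cluster, low numbers lie toward one end and are switched on early and far forward in the embryo, while high numbers lie toward the other end and mark the hind trunk, limbs and urogenital tract. Adult fibroblasts and muscle cells keep much of the pattern they were given in the embryo. In mouse lung development Hoxa5 acts in the mesenchyme, where its loss disturbs tracheal and lung growth and is often lethal at birth, and Hoxb5 is needed for normal branching of the airways.

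Cells were sorted into classes by clustering that left out every Hox gene and every other transcript of the Hox clusters, 87 annotated genes in all, so the members had no direct part in defining the classes. In the order male mouse 1, male mouse 2 and female mouse 1, which is kept throughout, the airway smooth muscle cell (SMC)-like class had 48, 13 and 27 cells. The pericyte-like class, the mural cells of capillaries, had 17, 12 and 55 cells, and the alveolar myofibroblast-like class had 25, 41 and 38. The alveolar fibroblast-like class had 60, 64 and 42 cells, the adventitial fibroblast-like class 16, 17 and 35, while the vascular SMC-like class took 65.5%, 56.8% and 28.8% of the cells of the mice. Most alveolar fibroblast-like cells of the males lay in one cluster (cluster 3) and those of the female in another (cluster 11). Likewise 88.8% of vascular SMC-like cells of the female lay in cluster 5, against under 1% of those of the males, which lay in clusters 0, 1 and 2, so mouse, plate and cluster cannot be told apart there. Endothelial-like cells (3 in male mouse 1 and 67 in female mouse 1) and macrophage or monocyte-like cells (56 in male mouse 1 and 5 in male mouse 2) are only described. Cells held 50835 to 1074103 counts, with a median of 230688. The labels say lung while the extraction protocol names heart: Tbx4, a factor of lung and limb mesenchyme, had 68779 counts in 806 cells, whereas the heart factor Nkx2-5 had 0 counts and the heart muscle myosin Myh6 had 15 counts in 8 cells. Other genes of the heart list did have counts, with 596441 in 98.3% of cells for the actin Actc1, 16107 in 20.1% for the troponin Tnnt2, 1346 in 1.31% for Gata4 and 874 in 4.07% for Tbx20. The part of heart cells in these counts was not tested.

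Lung mesenchyme carried a Hox code made almost wholly of HoxA and HoxB genes with paralogue numbers of 1 to 8. Over all cells, with endothelial-like and macrophage or monocyte-like ones included, the 39 genes together took 102892 counts. That was 0.0290% of all counts or 289.9 CPM (the usual scaling of counts to library size), and 1244 of 1376 cells (90.4%) had at least 1 of the genes. HoxB gave 58395 of these counts (56.8%) and HoxA 43649 (42.4%), while HoxC gave 0.631% and HoxD 0.193%. The 15 HoxA and HoxB genes with paralogue numbers of 1 to 8 took 99.01% of all Hox counts, and the 16 genes of every cluster numbered 9 to 13 took 0.423%. Every mouse showed this layout in each of the 6 tested classes. Across the 18 sums of a class and a mouse, the first set took 98.9% of the summed Hox level per kilobase of exon on average (SD 1.21), with a lowest value of 96.2%.

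**Figure D1:**
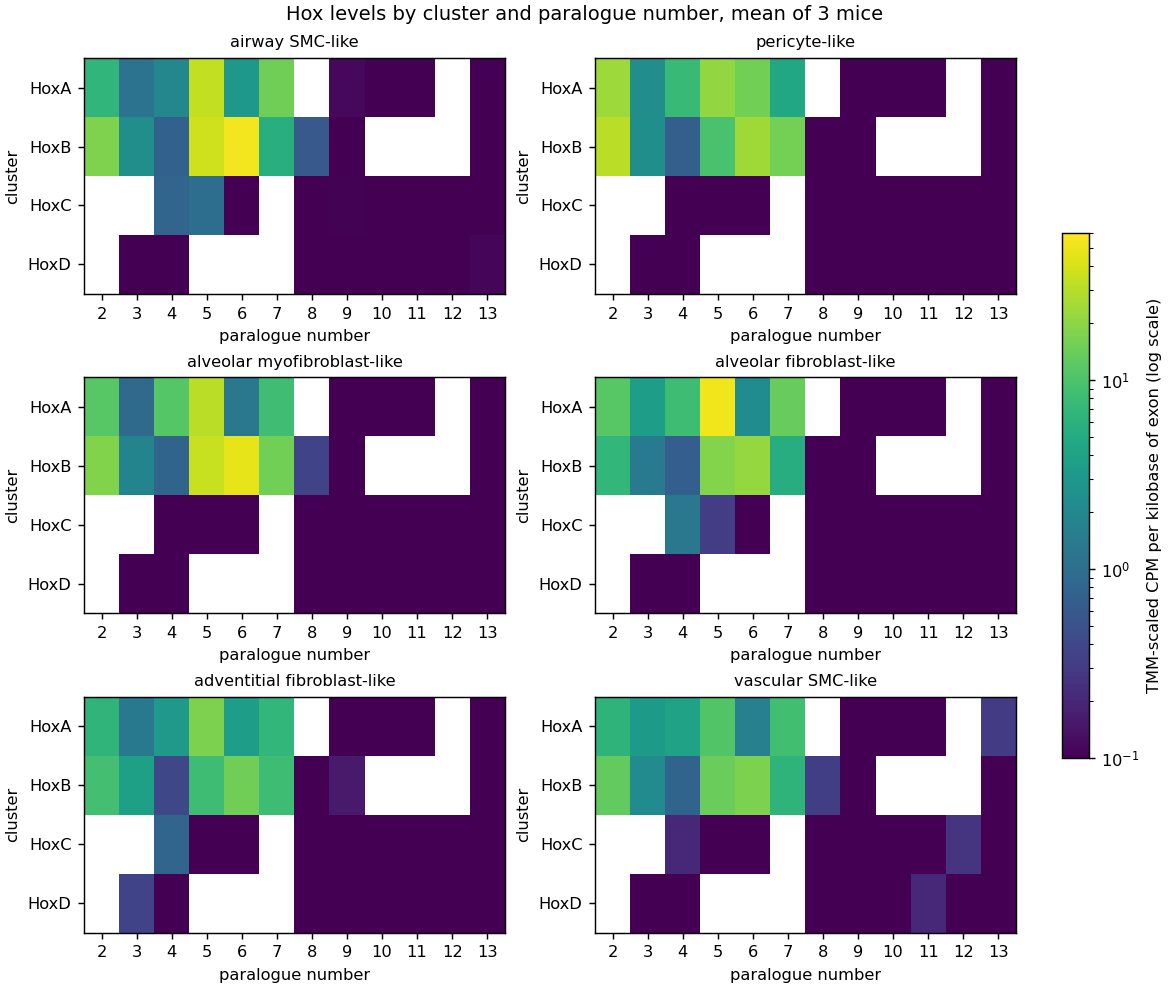
Mean Hox level of 3 mice in each of 6 classes, in TMM-scaled CPM per kilobase of exon (colour, log scale), by cluster (rows) and paralogue number from 2 to 13 (columns). White squares mark numbers with no gene, and levels under 0.1 are drawn at 0.1. The colour lies mainly in the HoxA and HoxB rows between numbers 2 and 8 in every class, with Hoxb6 of airway SMC-like cells at 54.1 and Hoxa5 of alveolar fibroblast-like cells at 51.7 as the highest means.

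The border of the code on the chromosome was sharp after Hoxa7 and between Hoxb2 and Hoxb1, and stepwise after Hoxb7. Hoxa7 (chromosome 6, 52214491 to 52221854, minus strand, GRCm38) had 10986 counts in 20.6% of cells, and its neighbour Hoxa9, whose annotated span begins 1245 bases further, had 16 counts in 2 cells. At the same end of HoxB, Hoxb7 had 4046 counts in 9.74% of cells, Hoxb8, 1307 bases away, was found in 2.62%, and Hoxb9, 5309 bases beyond that, had 64 counts in 4.14%. At the other end, Hoxb2 (chromosome 11, 96350525 to 96354012, plus strand) had 16935 counts in 37.9% of cells, and Hoxb1, 11739 bases away, had none. Hoxb1 acts in the embryonic hindbrain. A count of 0 in 1376 cells allows a share of cells with a count of up to 0.218%, a limit that covers counting error only.

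The start-site windows of 4 genes are shown because they lie on either side of these borders or, for Hoxa5, at the HoxA gene with the most counts. Sequences are from RefSeq on GRCm38.p6, 250 bases before to 50 bases after the annotated start, written from 5′ to 3′ on the gene's strand. Capitals mark the first-listed letters of a motif found on either strand, where the motifs searched were AGGTCA, the half-site of retinoic acid receptors, and TGATNNAT, a site bound by PBX and HOX proteins together. The windows are Hoxa5 at chr6:52204538-52204837 (minus strand), Hoxa7 at chr6:52218524-52218823 (minus), Hoxa9 at chr6:52227321-52227620 (minus) and Hoxb1 at chr11:96365508-96365807 (plus).
Hoxa5: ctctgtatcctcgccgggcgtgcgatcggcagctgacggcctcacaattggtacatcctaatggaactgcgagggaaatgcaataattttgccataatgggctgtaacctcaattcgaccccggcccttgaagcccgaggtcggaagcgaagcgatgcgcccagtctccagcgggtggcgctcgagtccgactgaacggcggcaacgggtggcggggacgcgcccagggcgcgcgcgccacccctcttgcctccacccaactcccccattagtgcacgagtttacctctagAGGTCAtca
Hoxa7: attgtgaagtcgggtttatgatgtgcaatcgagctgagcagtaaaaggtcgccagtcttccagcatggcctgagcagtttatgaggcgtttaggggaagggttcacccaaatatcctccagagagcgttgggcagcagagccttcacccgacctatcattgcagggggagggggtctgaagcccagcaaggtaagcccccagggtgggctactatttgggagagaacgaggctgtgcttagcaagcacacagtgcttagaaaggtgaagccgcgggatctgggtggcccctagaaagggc
Hoxa9: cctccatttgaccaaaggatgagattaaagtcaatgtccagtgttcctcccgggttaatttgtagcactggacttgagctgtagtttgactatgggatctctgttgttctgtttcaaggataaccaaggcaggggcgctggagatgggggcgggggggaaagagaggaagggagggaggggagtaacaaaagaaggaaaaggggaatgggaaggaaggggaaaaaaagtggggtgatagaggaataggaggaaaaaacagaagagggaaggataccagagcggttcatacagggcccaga
Hoxb1: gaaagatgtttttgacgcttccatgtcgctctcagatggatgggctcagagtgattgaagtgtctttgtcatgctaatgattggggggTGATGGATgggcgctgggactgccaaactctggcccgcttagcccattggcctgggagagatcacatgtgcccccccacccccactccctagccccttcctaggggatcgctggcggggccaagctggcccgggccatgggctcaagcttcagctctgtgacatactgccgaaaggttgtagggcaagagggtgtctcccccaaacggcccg
The Hoxa5 window held AGGTCA in its last bases, the Hoxb1 window held TGATNNAT, and the Hoxa7 and Hoxa9 windows held neither. AGGTCA stood in 7 of 24 Hox windows (29.2%), against 16.3% of all 32851 windows, and TGATNNAT in 4 of 24 (16.7%), against 8.85%. CG dinucleotides numbered 29 in the Hoxa5 window, 9 in that of Hoxa7, 4 in that of Hoxa9 and 10 in that of Hoxb1, and the median of all windows was 7. The table of windows covered 22 of the 39 genes, and Hoxb2, Hoxb5 and Hoxb6 were not among them. These matches are letters in a window, not sites shown to be bound.

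Within the expressed stretch the genes were far from even by counts, which are not scaled to exon length. That length ran from 874 bases in Hoxa6 to 6014 in Hoxa3. Over all cells Hoxb5 had 17431 counts in 33.9% of cells, Hoxa5 16344 in 32.8% and Hoxb6 15638 in 23.5%. Hoxb2, with 16935 counts, lay between the first pair, and Hoxa7, with 10986, came below them. Their neighbours Hoxb4 (727 counts in 8.36% of cells) and Hoxa6 (707 in 2.76%) were much lower, although Hoxb4 lies between Hoxb5 and Hoxb3, and Hoxa6 between Hoxa5 and Hoxa7. Hoxa3 (5801 counts in 21.1% of cells), Hoxa2 (5308 in 10.1%), Hoxb3 (3285 in 19.5%) and Hoxa4 (3132 in 8.72%) lay between. By mean level per kilobase in 6 classes, Hoxb6 stood first in airway SMC-like, alveolar myofibroblast-like and vascular SMC-like cells, Hoxa5 in both fibroblast classes and Hoxb2 in pericyte-like cells.

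Counts outside this stretch were few, and some of the genes had them mainly one at a time. A cell with any count held 48.3 counts of Hoxb6 on average, 37.4 of Hoxb5, 36.2 of Hoxa5 and 32.5 of Hoxb2, 19.6 of Hoxc4, 17.3 of Hoxc5 and 15.5 of Hoxd3, against 1.12 of Hoxb9, 1.06 of Hoxc8 and 1.59 of Hoxc9. Of the 64 cells with Hoxc9, 49 had a single count, as did 50 of 57 cells with Hoxb9, 29 of 31 with Hoxc8 and 12 of 13 with Hoxd11. Single counts cannot be told from misassigned reads. A few cells held more, as 1 cell had 75 of the 87 counts of Hoxd11. Hoxa13, a gene of the hind gut and limb ends, had 69 counts in 1 vascular SMC-like cell of male mouse 2, Hoxc12 26 counts in 1 vascular SMC-like cell of female mouse 1, and Hoxd3 55 counts in 1 adventitial fibroblast-like cell of female mouse 1. HoxC was represented mainly by Hoxc4 in 17 cells and Hoxc5 in 7 cells. Of the 39 genes, 4 had no count (Hoxa11, Hoxb1, Hoxc10 and Hoxd12), 19 had counts but did not pass the filter on low counts, and 16 were tested between classes.

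**Figure D2:**
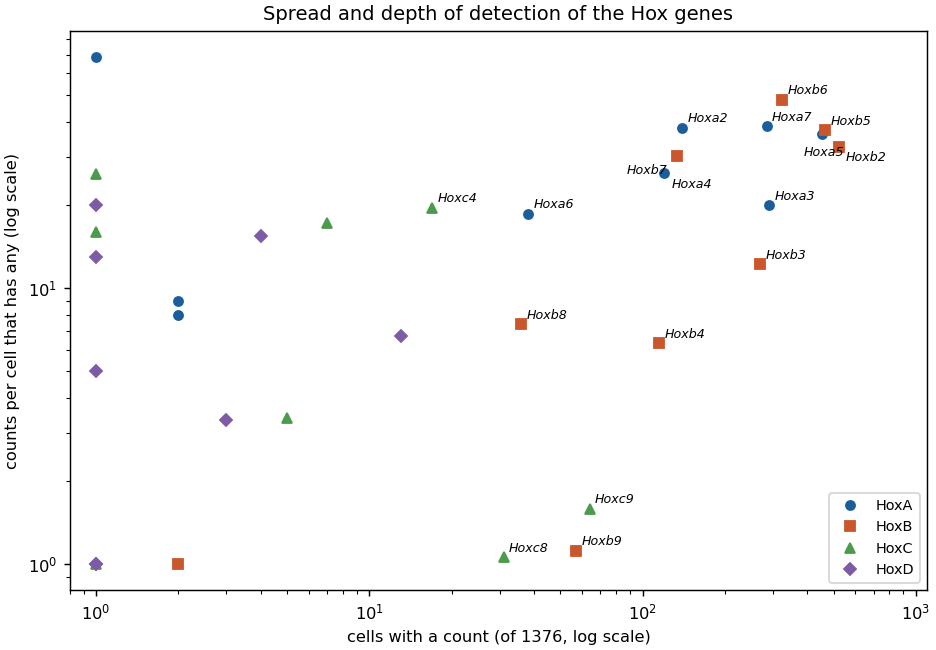
Points are Hox genes with a count: the number of cells with a count (of 1376, log scale) against the mean counts in those cells (log scale), by cluster. Hoxb5, Hoxb2 and Hoxa5 lie far to the right with over 30 counts per positive cell, and Hoxb9, Hoxc8 and Hoxc9 lie near 1 count per positive cell.

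Among the 6 classes, Hoxb2 was the single Hox gene whose level differed at an adjusted p under 0.05, with its highest values in pericyte-like cells. Hoxb2 (ENSMUSG00000075588) shapes the hindbrain in the mouse embryo. Its level in TMM-scaled CPM was 125.6, 96.3 and 103.8 in pericyte-like cells, 79.99, 25.1 and 75.01 in airway SMC-like cells and 70.2, 36.1 and 82.1 in alveolar myofibroblast-like cells. It was 42.9, 25.03 and 24.5 in adventitial fibroblast-like cells, 25.7, 18.1 and 28.9 in alveolar fibroblast-like cells and 49.3, 25.7 and 61.7 in vascular SMC-like cells. The lowest pericyte-like value thus lay above the highest value of every other class, the fibroblast classes overlapped at the bottom, and male mouse 2 was lowest in 5 of 6 classes. The test among classes gave an adjusted p of 0.0348 (edgeR's quasi-likelihood test on sums per class and mouse, with the mouse as a block and Benjamini-Hochberg adjustment over 16249 genes). With that test 1 of 16 Hox genes (6.25%) was called, against 12.3% of all genes tested. No Hox gene was called when any 1 of the 3 mice was left out or when the mouse was not fitted as a block, whereas DESeq2 called 4 (Hoxa5, Hoxb2, Hoxb5 and Hoxb6), against 24.1% of all genes, and limma 3 (Hoxb2, Hoxb5 and Hoxb6), against 18.1%. At an unadjusted p under 0.05 there were 4 Hox genes (25%), against 24.4% of all genes.

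Hoxb2 could not be separated from its antisense partner. The noncoding gene Hoxb3os shares 953 of the 3488 exonic bases of Hoxb2 (27.3%) and 2250 of the 4251 of Hoxb3 (52.9%) on the opposite strand, and no source used here says whether reads were counted by strand. Hoxb3os had 109.8, 100.1 and 93.8 CPM in pericyte-like cells and 23.8, 22.2 and 28.5 CPM in alveolar fibroblast-like cells, against 58.1, 33.2 and 51.96 CPM in the vascular SMC-like class, an order of classes close to that of Hoxb2. With each cell thinned to 50000 counts, Hoxb2 was detected in 69.3%, 67.2% and 75.7% of cells with Hoxb3os, against 2.02%, 6.25% and 5.96% of cells without it. The same shares for Hoxb3 were 29.6%, 28.9% and 21.3% against 4.04%, 5.80% and 3.83%. The part of shared reads in the level of Hoxb2 was not tested.

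Hoxa5 (ENSMUSG00000038253, chromosome 6, 52201754 to 52204587) had its highest mean of the 6 classes in alveolar fibroblast-like cells, the resident fibroblasts of the gas-exchange region. It had 131.8, 82.2 and 77.1 CPM there, 57.6, 38.6 and 92.998 in airway SMC-like cells and 73.5, 19.4 and 27.1 in pericyte-like cells. It had 89.2, 63.2 and 23.6 CPM in alveolar myofibroblast-like cells, 21.4, 60.4 and 13.97 in adventitial fibroblast-like cells and 30.1, 12.5 and 16.6 in vascular SMC-like cells. The alveolar fibroblast-like values did not overlap those of vascular SMC-like cells in any mouse and overlapped those of airway SMC-like and alveolar myofibroblast-like cells, and in female mouse 1 the airway value was the higher one. The mean was 97.03 ± 30.2 CPM in alveolar fibroblast-like cells, against 19.8 ± 9.21 in the vascular SMC-like class (SD, n = 3 mice), with a log2 fold change of 2.32 ± 0.71 (SE) and an adjusted p of 0.0900 by edgeR's quasi-likelihood test, over the threshold of 0.05. Over 15 alternative settings the log2 fold change ran from 2.20 to 2.90, the adjusted p from 0.00397 to 0.412, and 5 settings called it.

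The share of cells with Hoxa5 was highest in the same class. With all cells thinned to 50000 counts, 58.3%, 53.1% and 59.5% of alveolar fibroblast-like cells had a count, against 15.4%, 15% and 16.8% of vascular SMC-like cells. Level and share did not rank all classes alike, since pericyte-like cells averaged 40.01 CPM and a thinned share of 16.4% ± 7.22, and adventitial fibroblast-like cells 31.9 CPM and 30.6% ± 5.20 (SD, n = 3 mice). In macrophage or monocyte-like cells of male mouse 1, which descend from blood-forming lineages, the thinned share was 1.79%, and it was 12.5% before thinning at a median of 244794 counts per cell, against a median of 251445 in vascular SMC-like cells of that mouse. Macrophage or monocyte-like cells of that mouse had 0.551 CPM of Hoxa5. Summed endothelial markers were 94.8, 43.8 and 31.4 CPM in alveolar fibroblast-like cells, against 46.7, 113.8 and 64.5 CPM in the vascular SMC-like class, with 0 of 8 markers at 0 in either class. Mesothelial markers summed to 0.285, 321.8 and 0 CPM in alveolar fibroblast-like cells, and their part in the Hoxa5 level of male mouse 2 was not tested.

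Hoxb5 and Hoxb6, adjacent genes of HoxB, both stood highest in airway SMC-like and alveolar myofibroblast-like cells. Hoxb6 (ENSMUSG00000000690, chromosome 11, 96292476 to 96301569), a gene of the thoracic region of the embryo, had 97.4, 122.8 and 98.4 CPM in airway SMC-like cells, 100.2, 13.97 and 27.04 in pericyte-like cells and 106.05, 72.7 and 99.2 in alveolar myofibroblast-like cells. It had 46.5, 34.6 and 47.2 CPM in alveolar fibroblast-like cells, 18.2, 44.2 and 26.4 in adventitial fibroblast-like cells and 35.98, 38.5 and 24.8 in vascular SMC-like cells. Every airway value and every myofibroblast value lay above every value of the fibroblast and vascular classes. The high pericyte-like value of male mouse 1 came from 3 of 17 cells. For airway against vascular SMC-like cells the log2 fold change of Hoxb6 was 1.71 ± 0.63 (SE, n = 3 mice), with an adjusted p of 0.287 by edgeR's quasi-likelihood test.

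Hoxb5 (ENSMUSG00000038700, chromosome 11, 96303336 to 96306121) had 117.7, 133.98 and 64.2 CPM in airway SMC-like cells, 18.1, 23.3 and 38.9 in pericyte-like cells and 44.9, 166.5 and 85.1 in alveolar myofibroblast-like cells. It had 39.96, 49.99 and 63.3 CPM in alveolar fibroblast-like cells, 24.6, 10.6 and 33.2 in adventitial fibroblast-like cells and 40.1, 42.6 and 33.6 in vascular SMC-like cells. Airway values lay above all vascular and pericyte-like ones, while myofibroblast values spread over a wide range and reached down into those of the alveolar fibroblasts. The airway against vascular log2 fold change was 1.45 ± 0.59 (SE, n = 3 mice, adjusted p = 0.356, edgeR's quasi-likelihood test). Among classes the adjusted p was 0.0611 for Hoxb5, 0.156 for Hoxb6 and 0.216 for Hoxa5 by the same test, so none of these passed.

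Hoxa2, a gene of the hindbrain and its neural crest, was the fifth by level per kilobase, and its highest mean rested on 1 mouse. It had 10.8, 87.7 and 25.1 CPM in pericyte-like cells, against 13.6, 11.7 and 8.93 CPM in the vascular SMC-like class. The value of 87.7 came from 4 of 12 cells. In airway SMC-like cells it had 18.4, 11.6 and 5.83 CPM, in alveolar myofibroblast-like cells 18.8, 25.3 and 17.2, in alveolar fibroblast-like cells 24.2, 13.8 and 22.6 and in adventitial fibroblast-like cells 5.93, 27.2 and 2.34. Values of both alveolar classes lay above every vascular SMC-like value, the other classes overlapped these, and the adjusted p among classes was 0.609 (edgeR's quasi-likelihood test).

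**Figure D3:**
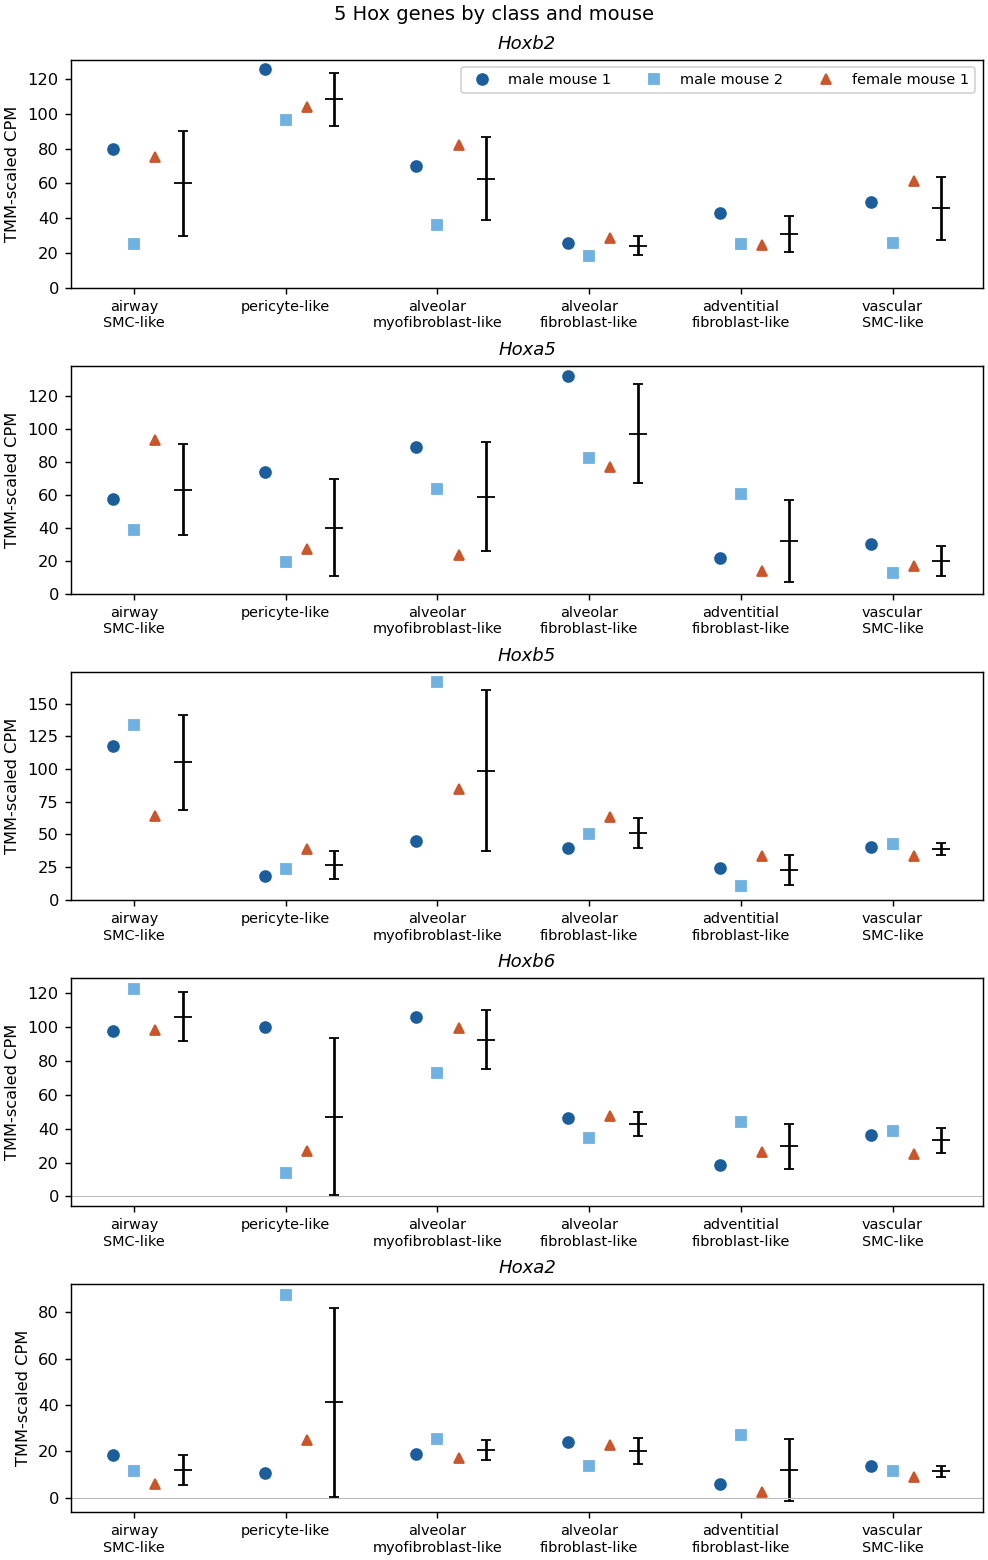
TMM-scaled CPM of Hoxb6, Hoxa5, Hoxb5, Hoxb2 and Hoxa2 in 6 classes, with 1 point per mouse and the mean and SD over 3 mice as a bar and whisker. Hoxb2 in pericyte-like cells stands above every other class in all 3 mice, Hoxa5 in alveolar fibroblast-like cells stands above vascular SMC-like cells, and the point of 87.7 for Hoxa2 is male mouse 2.

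The 11 other tested genes gave no call. Hoxa7 had its highest mean in airway SMC-like cells at 43.5 ± 11.5 CPM, against 25.1 ± 9.76 in the vascular SMC-like class (SD, n = 3 mice). Hoxa3 had 21.0 ± 3.41 CPM in alveolar fibroblast-like cells, 8.08 ± 4.25 in adventitial fibroblast-like cells and 5.45 ± 4.36 in alveolar myofibroblast-like cells, against 19.7 ± 2.98 in the vascular SMC-like class, and its adjusted p among classes was 0.675 (edgeR's quasi-likelihood test). The values of the adventitial and myofibroblast classes lay below all those of the alveolar fibroblast-like and vascular SMC-like classes. Other annotated genes share 27.1% of the exonic bases of Hoxa3 and 20.4% of those of Hoxa7. Both genes had counts in every class and mouse. By contrast Hoxa6 had 33.3 CPM in pericyte-like cells of male mouse 1 from 1 cell, and Hoxb7 had 56.5 CPM there from 1 cell, so their highest class means rested mainly on single cells. Hoxc5 was met in 1 airway SMC-like cell of each mouse, with 2, 3 and 64 counts, and in 2 alveolar fibroblast-like cells of male mouse 2 with 50 counts, and its adjusted p among classes of 0.0641 (edgeR's quasi-likelihood test) rests on these cells. Adjusted p-values of the other 10 genes among classes ran from 0.420 for Hoxc4 to 0.995 for Hoxb7.

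In pairwise comparisons no Hox gene was called by edgeR's quasi-likelihood test. In airway against vascular SMC-like cells 0 of 16 was called, against 1.22% of all genes, although 4 had an unadjusted p under 0.05 (Hoxc5, Hoxb6, Hoxa5 and Hoxb5), DESeq2 called 2 (Hoxa5 and Hoxb6) and limma called 0. Over all genes these rules took 10.6%, 5.6% and 3.24%. There 12 of 16 Hox genes had a higher level in airway cells, and their median log2 fold change was 0.40 against −0.22 over all genes. Between the pericyte-like and the vascular SMC-like class 0 of 16 was called, against 3.3% of all genes. Here 1 (Hoxb2) had an unadjusted p under 0.05 (16.9% of all genes), DESeq2 called 1 (12% of all genes) and limma 0 (8.4%), and Hoxb2 had a log2 fold change of 1.35 ± 0.47 (SE, n = 3 mice) with an adjusted p of 0.151. In alveolar fibroblast-like against vascular SMC-like cells 0 of 16 was called, against 4.26% of all genes. Only Hoxa5 had an unadjusted p under 0.05, as did 12.5% of all genes, and it was called by DESeq2 and by limma, as were 8.55% and 6.78% of all genes. The median log2 fold change there was 0.40 over the Hox genes, with 11 of 16 higher in alveolar fibroblasts, and −0.10 over all genes.

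Between the alveolar and adventitial classes the picture was similar. In alveolar myofibroblast-like against alveolar fibroblast-like cells 0 of 16 was called, against 2.12% of all genes, with 2 at an unadjusted p under 0.05 (Hoxb2 and Hoxc5), 1 by DESeq2 and 0 by limma, where these rules took 12.2%, 7.92% and 4.06% of all genes. Hoxb2 was higher in the myofibroblast-like cells by a log2 fold change of 1.32 ± 0.47 (SE, n = 3 mice, adjusted p = 0.214, edgeR's quasi-likelihood test). In alveolar myofibroblast-like against airway SMC-like cells 0 of 16 was called, against 0.972% of all genes, with 1 (Hoxc5) at an unadjusted p under 0.05 and 0 by DESeq2 or limma, where these rules took 12.1%, 7.78% and 2.52% of all genes. In adventitial against alveolar fibroblast-like cells 0 of 16 was called, against 0.425% of all genes, with 2 (Hoxa5 and Hoxc5) at an unadjusted p under 0.05 and 0 by DESeq2 or limma, where these rules took 7.8%, 3.26% and 1.17% of all genes. In that comparison 14 of 16 Hox genes were lower in the adventitial class, with a median log2 fold change of −1.13 against −0.15 over all genes. Hoxa5 had −1.54 ± 0.71 there (SE, n = 3 mice, adjusted p = 0.620, edgeR's quasi-likelihood test). The comparisons share classes, so their values are not independent of each other.

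Taken by cluster, alveolar fibroblast-like cells leaned toward HoxA and most other classes toward HoxB. The summed HoxA level was 92.8 ± 17.3 CPM per kilobase in alveolar fibroblast-like cells, 64.6 ± 20.7 in airway SMC-like cells, 65.9 ± 24.4 in alveolar myofibroblast-like cells, 74.98 ± 36.03 in pericyte-like cells, 38.99 ± 28.7 in adventitial fibroblast-like cells and 37.04 ± 8.27 in vascular SMC-like cells (SD, n = 3 mice). The summed HoxB level was 54.6 ± 8.18 CPM per kilobase in alveolar fibroblast-like cells, 118.3 ± 10.6 in airway SMC-like cells, 119.1 ± 11.4 in alveolar myofibroblast-like cells, 83.5 ± 43.5 in pericyte-like cells, 44.6 ± 12.9 in adventitial fibroblast-like cells and 53.6 ± 5.77 in vascular SMC-like cells. HoxA thus made up 68.9%, 62.3% and 56.9% of the summed HoxA and HoxB level in alveolar fibroblast-like cells, against 44.1%, 37.2% and 40.5% in the vascular SMC-like class. The share was 37.4%, 24.6% and 42.7% in airway SMC-like cells, 43.1%, 34.4% and 26.9% in alveolar myofibroblast-like cells, 46.5%, 52.7% and 43.6% in pericyte-like cells and 37.4%, 64.2% and 25.4% in adventitial fibroblast-like cells. All 3 alveolar fibroblast values lay above those of the other classes except the 64.2% of adventitial cells of male mouse 2. Hoxa5 alone had a mean of 51.7 CPM per kilobase in alveolar fibroblast-like cells. The other HoxA genes together thus lay below the whole of HoxB in that class. Its HoxB sum was also below those of the airway SMC-like and alveolar myofibroblast-like classes. The part of Hoxa5 in the lean toward HoxA was not tested. No test was made on these shares. By paralogue number, number 5 (Hoxa5, Hoxb5, Hoxc5) summed to 72.4 ± 3.13 CPM per kilobase in airway SMC-like cells, 66.7 ± 25.3 in alveolar myofibroblast-like cells, 70.3 ± 12.3 in alveolar fibroblast-like cells, 30.9 ± 13.7 in pericyte-like cells and 25.2 ± 9.37 in adventitial fibroblast-like cells, against 24.5 ± 5.22 in the vascular SMC-like class.

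**Figure D4:**
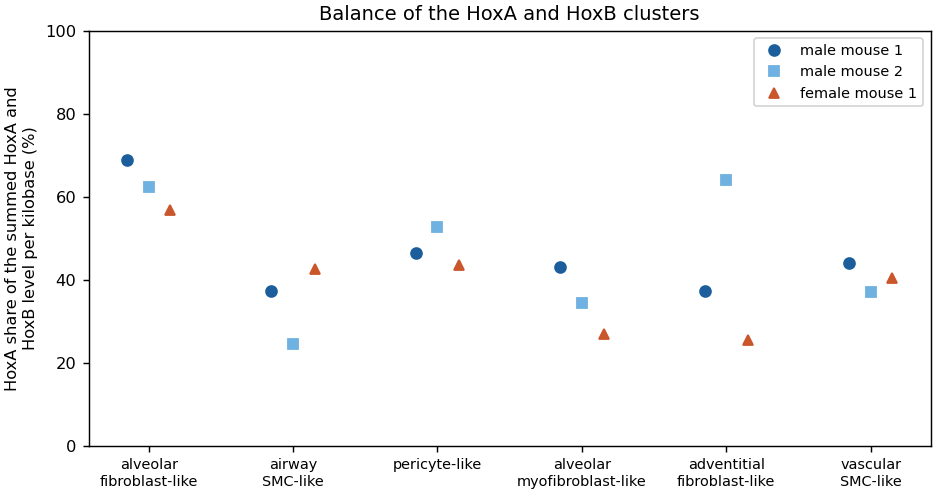
Share of the summed HoxA and HoxB level per kilobase that fell to HoxA (per cent), with 1 point per mouse in 6 classes. Alveolar fibroblast-like cells lie between 56.9% and 68.9%, and vascular SMC-like cells between 37.2% and 44.1%.

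A single cell showed only a small part of the code of its class. After thinning to 50000 counts a cell of the 6 classes had 1.22 to 2.98 Hox genes on average across classes and mice and never more than 7. On average over the 18 sums, 87.99% of thinned cells had at least 1 Hox gene (SD 7.24, range 69.1% to 100%), and 96.5% did before thinning. Genes were compared pair by pair for how often they were found in the same cells. In vascular SMC-like cells Hoxb6 was found in 11.6%, 28% and 15.2% of cells with Hoxb5, against 13.5%, 20.7% and 16.2% of cells without it. Hoxb5 was found in 18.2%, 20.0% and 27.8% of cells with Hoxa5, against 22.9%, 25.9% and 31.5% of cells without it. In alveolar fibroblast-like cells the second pair had 28.6%, 41.2% and 44% against 20%, 36.7% and 47.1%. Hoxb5 was found in 22.2%, 53.3% and 66.7% of alveolar fibroblast-like cells with Hoxb2, against 26.2%, 34.7% and 36.7% of those without it, and in 28.1%, 22.8% and 33.3% against 19.7%, 25.9% and 29.2% of vascular SMC-like cells. Over 5 pairs in these classes, the direction was the same in all 3 mice for the second pair in vascular SMC-like cells alone, and no test was made over cells.

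**Figure D5:**
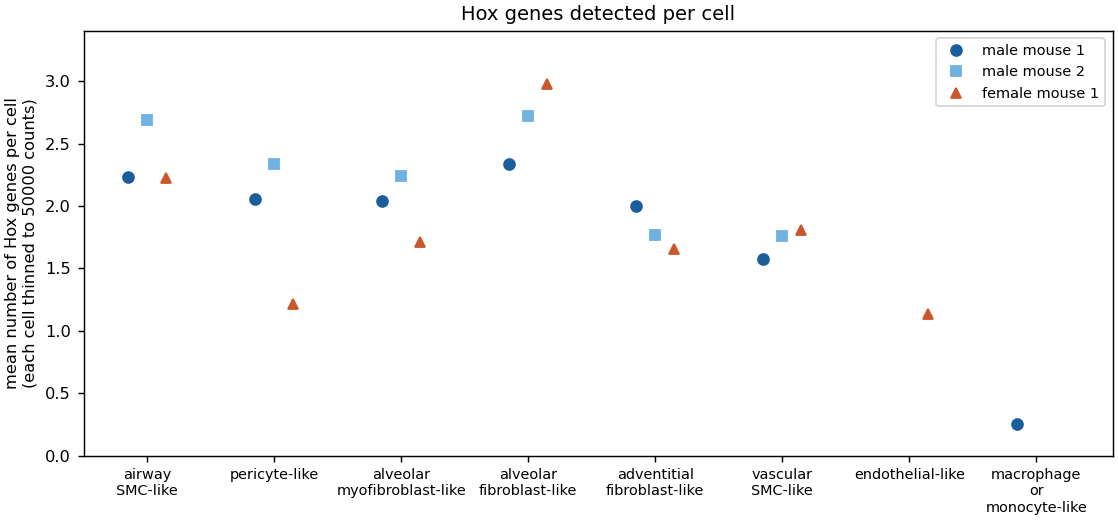
Mean number of Hox genes with a count per cell, after thinning each cell to 50000 counts, with 1 point per class and mouse. The 6 mesenchymal classes lie between 1.22 and 2.98, endothelial-like cells of female mouse 1 at 1.13 and macrophage or monocyte-like cells of male mouse 1 at 0.25.

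The classes outside the mesenchyme differed from it in different ways. Macrophage or monocyte-like cells of male mouse 1 had 5.92 CPM of all Hox genes together and 0.25 Hox genes per thinned cell, and 78.6% of them had none. The 5 such cells of male mouse 2 had 65.1 CPM and 0.8 Hox genes per thinned cell. In male mouse 1 the mesenchymal classes had 203.3 to 520.9 CPM. Endothelial-like cells of female mouse 1 had 203.3 CPM, between the 127.7 CPM of adventitial fibroblast-like cells and the 435.3 CPM of airway SMC-like cells of that mouse. Hoxa5 alone gave 101.2 of these, with 42.7 from Hoxb5, 11.5 from Hoxb2 and 2.74 from Hoxb6, while in vascular SMC-like cells of that mouse Hoxb5 and Hoxb6 had 33.6 and 24.8 TMM-scaled CPM.

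The plates of male mouse 1 gave a check within 1 animal. In vascular SMC-like cells on plates 045s and 046s, Hoxb2 had 65.6 and 44.6 CPM, Hoxb5 50.4 and 39.5, Hoxb6 42.8 and 38.04, Hoxa5 27.7 and 40.6 and Hoxa7 30.8 and 51.6. Among the genes named here, Hoxa2 differed most as a ratio, with 7.90 and 23.3 CPM. Summed over all members, vascular SMC-like cells had 263.9, 217.4 and 212.8 TMM-scaled CPM in the 3 mice. Within that class, Hoxa7 ran from 50.5 CPM in cluster 0 through 38.4 in cluster 1 to 18.8 in cluster 2 in male mouse 1. It had 27.2, 30.8 and 1.03 CPM in the same clusters of male mouse 2.

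Genes that work with or on the Hox clusters were looked at as lists. HOX proteins bind DNA together with homeodomain partners of the PBX, MEIS and PKNOX families. A list of 11 genes held members of these families and also Tgif1 and Tgif2. Of the 11, 3 differed among classes, against 12.3% of all genes. In each pairwise comparison 0 of 11 was called, against 0.425% to 4.26% of all genes. By pairwise comparison 0 to 2 of the 11 had an unadjusted p under 0.05, DESeq2 called 0 to 2 and limma 0. Over all genes these rules took 7.8% to 16.9%, 3.26% to 12% and 1.17% to 8.4%. Pknox2 had 353.4, 277.9 and 431.2 CPM in pericyte-like cells, against 26.1, 25.5 and 84.5 CPM in the vascular SMC-like class (adjusted p among classes = 0.0426, edgeR's quasi-likelihood test). Pbx4 stayed at or under 10.7 CPM in every sum (adjusted p among classes = 0.0306). Pairwise, the median log2 fold change of this list was 0.51 for pericyte-like over vascular SMC-like cells, beside −0.29 over all genes. Of the 18 Polycomb and trithorax genes, whose complexes keep Hox genes off or on, 0 differed among classes or in any of the 6 pairwise comparisons by edgeR's quasi-likelihood test. Among classes 3 of them had an unadjusted p under 0.05 (24.4% of all genes), DESeq2 called 2 (24.1%) and limma 0 (18.1%). Pairwise 0 to 2 had an unadjusted p under 0.05, with 0 to 2 calls by DESeq2 and 0 by limma. The pairwise shares of all genes are those given above for each rule.

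Retinoic acid is an upstream signal of the anterior Hox genes in the embryo, and 12 of 19 genes of its receptors and metabolism were tested. Of these, 4 differed among classes (among them Aldh1a1, Rxrg and Stra6), against 12.3% of all genes. Aldh1a1, a retinaldehyde dehydrogenase, had 742.5, 1479 and 689.8 CPM in alveolar fibroblast-like cells, against 64.5, 41.01 and 55.2 CPM in the vascular SMC-like class. The log2 fold change was 4.20 ± 0.58 (SE, n = 3 mice), with an adjusted p of 0.000555 by edgeR's quasi-likelihood test. Aldh1a1 was among the genes used in the clustering, so its difference is partly built in. Stra6, the membrane receptor for retinol-binding protein, had 43.2, 16.7 and 7.85 CPM in alveolar fibroblast-like cells, against 0.0301, 1.78 and 0 CPM in the vascular SMC-like class (adjusted p among classes = 0.0354). Rxrg had at most 0.289 CPM in any sum of the other classes, against 4.66, 6.74 and 1.53 CPM in the vascular SMC-like class (adjusted p among classes = 0.0190).

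Other transcripts of the Hox clusters and the regional factors of the lung completed the lists. Of 48 other annotated genes inside the clusters, 12 were tested, and 0 was called among classes or pairwise by edgeR's quasi-likelihood test. Among classes 1 of them had an unadjusted p under 0.05 (24.4% of all genes), DESeq2 called 3 (24.1%) and limma 1 (18.1%). Pairwise 0 to 3 had an unadjusted p under 0.05 (7.8% to 16.9% of all genes). DESeq2 gave 0 to 2 pairwise calls (3.26% to 12%) and limma 0 (1.17% to 8.4%). Hotairm1, a noncoding RNA of HoxA, had 6667 counts in 37.5% of cells. Hotair and Hottip, which lie among the genes with high numbers in HoxC and HoxA, had 0 counts. Of 12 transcription factors of lung mesenchyme, 11 were tested and 9 differed among classes, against 12.3% of all genes. These were Tcf21, Meox2, Tbx2, Tbx4, Tbx5, Foxf1, Gli1, Osr1 and Gli2, with adjusted p-values of 5.4e-07 to 0.0335 by edgeR's quasi-likelihood test. Between the pericyte-like and the vascular SMC-like class 4 of 11 were called higher and 1 lower, against 3.3% of all genes in either direction. In alveolar fibroblast-like against vascular SMC-like cells 3 were called higher and 0 lower, against 4.26% of all genes. Tcf21 and Foxf1 are markers used to name classes. Of 9 heart factors, 4 were tested and 3 differed among classes (Actc1, Tnnt2 and Tbx20), against 12.3% of all genes. Actc1 and Tnnt2 took part in the clustering, and Actc1 is also expressed in smooth muscle.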

How the data were processed

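Gene expression was measured by Smart-Seq2 in 1376 single cells of 3 mice. The table the authors deposited holds read counts, as whole numbers for each Ensembl gene in each cell, per the file headers. The submitters' processing notes list featureCounts, Subread, Bowtie2, Bowtie and bcl2fastq as tools, with mm10 and GRCm38 as builds. The sources used here do not say how strand, shared reads and duplicates were handled. Reads of overlapping or antisense neighbours therefore cannot be told apart. GENCODE release 21 (GRCm38) gave symbols to 46005 of 46517 genes. No column was left unused. Ages differ between the labels (8 to 30 weeks) and the series text (8 to 21 weeks, males), and the labels call 1 mouse female.

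Cells were clustered on 2000 variable genes (30 principal components, 15 neighbours, Leiden resolution 1, igraph 0.11.9, leidenalg 0.10.2) without the Hox clusters' genes. Each of the 1376 cells had at least 50000 counts. Names ending in -like were given by marker lists, with a scoring rule set after the clusters had been seen. No doublet caller was run. Sums of raw counts over the cells of a class in a mouse were formed for the 6 classes with at least 10 cells in each mouse. The mouse is the replicate and n = 3. Sums of the same mouse come from the same animal, so the mouse was a block in the main fit. Of genes, 16249 passed filterByExpr and were tested with edgeR's quasi-likelihood test (version 4.0.16; TMM factors, 18 sums, 10 residual degrees of freedom, two-sided, Benjamini-Hochberg, threshold 0.05). The script was tested on simulated data. Levels are TMM-scaled CPM, and per kilobase of exon where levels of genes are ranked or summed by class. Counts over all cells are not scaled to exon length. Levels of endothelial-like and macrophage-like cells and of plates are plain CPM. Numbers of cells with a count, and shares over all 1376 cells, are from unthinned cells, which differed in depth. Other shares of cells with a count are after thinning each cell to 50000 counts, unless stated. Counts are PCR reads, not molecules. Genes used in the clustering can differ between classes by construction. Among the 14715 genes not used in it, 11.2% were called among classes and 0.292% to 3.81% in the pairwise comparisons.

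The members and gene lists were chosen with earlier results of these data known. Every member enters the counts of members, and some genes are not reported here singly. Values in every mouse are given for the members called among classes or in a comparison and for the 5 with the highest level per kilobase in any class. Genes that are no members are named from the lists where called. The Hoxa3, Hoxa6, Hoxa7, Hoxb7, Hoxc5 and other low members given with values were picked after their values were seen.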

Additional observations from a re-analysis of the deposited data

Results flagged for a closer look

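Hoxa5 in endothelial-like cells of female mouse 1 stood out in cells that no test used. Its level was 101.2 CPM, and 33 of 67 cells had a count. The mesenchymal class of that mouse with the highest level, airway SMC-like cells, had 91.9 CPM. The floor of 3 counts in that sum is 0.249 CPM. Male mouse 1 gave 3 endothelial-like cells and male mouse 2 none, so the value has no replicate.

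Hoxc9 in macrophage or monocyte-like cells of male mouse 1 had 2.20 CPM, from 32 counts in 10 of 56 cells, against 0.395 CPM in alveolar myofibroblast-like cells, the highest mesenchymal class of that mouse. The floor of 3 counts is 0.207 CPM there. After thinning, 5.36% of these cells had a count.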

How the results depend on the processing

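The count of Hox genes that differed among classes was 1 (Hoxb2) in the fit reported and stayed at 1 with DESeq2's size factors, at Leiden resolution 2 (Hoxb2) and with cells thinned to 50000 counts, where the gene called was Hoxb6. It was 4 by DESeq2 and 3 by limma on log2 mean CPM per cell. It was 0 with no filter on low counts, with no replicate block for the mouse and with Hox genes allowed in the clustering. Clustering on a random part of the genes also gave 0, as did Leiden resolution 0.5 and cells of at least 2000 genes and 100000 counts. The fits at resolution 0.5 and with the stricter cell filter lacked the pericyte-like class, which had under 10 cells in a mouse. They cannot show whether the Hoxb2 difference of that class holds. The fit at resolution 2 lacked airway SMC-like cells. The count ranged from 0 to 0 over the 3 fits that left out 1 mouse. For alveolar fibroblast-like against vascular SMC-like cells the count of 0 became 1 (Hoxa5) by DESeq2, by limma, with only the compared classes in the fit, at Leiden resolution 2 and with thinned cells. For airway against vascular SMC-like cells DESeq2 gave 2, and for pericyte-like against vascular SMC-like and alveolar myofibroblast-like against alveolar fibroblast-like cells it gave 1 each (Hoxb2). Other counts stayed at 0. Without the replicate block the count was 0 in all 7 tests. The cause of these shifts was not tested. No named value changed sign where called.

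Over 14 alternatives the adjusted p of Hoxb2 among classes ran from 3.52e-08 to 0.428. Leaving out 1 mouse lowered the number of all genes called among classes to between 716 and 833, against 2003. Without the block or with DESeq2's size factors the median log2 fold change of all genes in airway against vascular SMC-like cells was −0.11 and −0.12, against −0.22. The airway comparisons could not be run at Leiden resolution 2, nor the pericyte comparison at resolution 0.5 or with the stricter cell filter, because a class had under 10 cells in a mouse. Other clusterings gave 96.1% to 99.9% of the cells named in both the same name. Of the members with any count, 15 had counts in 5 cells or fewer, and whether more depth would change this was not tested.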

Other observations

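Some members were seen mainly as strong counts in lone cells. Hoxd10 had 20 counts in 1 endothelial-like cell of female mouse 1, as did Hoxc11 with 16 counts. Hoxa9 had 11 counts in 1 vascular SMC-like cell of male mouse 1 and 5 in 1 airway SMC-like cell of male mouse 2. Of the 87 counts of Hoxd11, 79 lay in 5 vascular SMC-like cells of male mouse 2, and 1 cell held 75.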
